A study of Xiphophorus maculatus x Xiphophorus hellerii with 32 samples.

Results

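PRKCB and PRKCE encode protein kinase C isoforms, and both were followed here through melanoma and skin of hybrid fish. They were chosen by name, as the rows PRKCB and PRKCE_1of2 of a transcript count table. They are 2 of its 20499 rows and 2 of the 30 rows that carry a gene symbol. The ending 1of2 marks 1 copy of a duplicated gene, and its reads may have been shared with the other copy, which is not analysed here.

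The fish were BC1 backcross hybrids of Xiphophorus maculatus and Xiphophorus hellerii from the Gordon-Kosswig cross, all 9 months old and all bearing melanoma. The groups were spontaneous melanoma (16 libraries) and skin (16 libraries) of such fish, so the skin also came from animals with a tumor, and no animals without one were included. Both tissues were available from 14 fish. Fish are called here by their titles, a number and a letter, as in 11949h. The sources used here do not say whether the number (11935, 11949, 11960 or 11963 in the matched libraries) marks a brood, a batch or something else. In this cross, hybrids can inherit the platyfish oncogene Xmrk, a mutated duplicate of an epidermal growth factor receptor gene. Melanoma can arise from the pigment cells of those that do.

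Protein kinase C enzymes are serine and threonine kinases that relay signals from the lipid messenger diacylglycerol. Activated receptors, receptor tyrosine kinases among them, switch on phospholipase C, which releases diacylglycerol from membrane lipid together with a messenger that frees stored calcium. PRKCB encodes PKC beta, a classical isoform that in mammals needs both calcium and diacylglycerol. It is abundant in mammalian B cells and is known in human melanocytes as a kinase of tyrosinase, the pigment-forming enzyme. PRKCE encodes PKC epsilon, which in mammals responds to diacylglycerol without calcium.

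Total counts ran from 2578877 to 6977222 in tumor libraries and from 4239036 to 6673975 in skin libraries. The lowest total belonged to the tumor of 11949f, and the next tumor library of that title number had 4938279. Xmrk averaged 545 ± 247 CPM in tumors and 67.1 ± 25.2 CPM in skins (SD, n = 16 each), and its lowest tumor value, 129.9 CPM, lay above its highest skin value, 110.3 CPM. CPM express the counts of a row relative to the total of its library, after TMM scaling, edgeR's correction of library sizes. Of 15 lists of genes for pigment cells, immune and other cell types and the PKC pathway, 13 matched no symbol in the table, so the tissue labels could not be checked against cell markers. The PKC family list matched 2 of its 15 genes, the pair described here, and the list for RNA handling and heat shock matched 1 of 9, HSP90AB1. The part of B cells, pigment cells or other cell types in the levels below was not tested. In whole tissue, fewer cells of a type and less RNA per cell cannot be told apart.

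PRKCB was a low-count gene whose level differed widely between fish. Its range was wider in tumor than in skin, though the difference in SD, tested below, did not pass. In tumors its level ran from 0.581 CPM in 11949c, through a median of 4.56 CPM, to 25.0 CPM in 11949h. In skins it ran from 1.37 CPM in 11960b, through a median of 4.50 CPM, to 8.52 CPM in 11949f. The medians of the tissues were thus nearly equal and the ranges overlapped, with the tumor range wider at both ends. The highest tumor value was 42.9 times the lowest, and the highest skin value was 6.24 times the lowest. These levels rest on 3 to 168 counts per tumor library and 5 to 55 counts per skin library. The lowest tumor value, from 3 counts, has an exact 95% Poisson interval of 0.120 to 1.70 CPM, which covers counting error only.

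The top of the tumor order was held by fish of title number 11949, to which 8 of the 16 tumors belonged. The tumor of 11949h had 25.0 CPM, with a counting interval of 21.3 to 29.0 CPM. Below it stood the tumors of 11949f at 16.1 CPM, 11949g at 13.1 CPM and 11949l at 9.01 CPM. The intervals of neighbours in this order overlapped, that of 11949f (11.8 to 21.3 CPM) barely with that of 11949h and widely with that of 11949g (10.4 to 16.4 CPM). The same title number also held the bottom of the order, with the tumors of 11949c at 0.581 CPM, 11949d at 1.85 CPM and 11949b at 2.63 CPM. The other tumors lay between 2.75 CPM, in a tumor column whose name matched no sample title, and 8.64 CPM in 11935e. The counting intervals of neighbours in that middle stretch overlapped.

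The skins kept part of that order. The highest skin levels of PRKCB were 8.52 CPM in 11949f, 7.93 CPM in 11949h and 7.74 CPM in 11963g. The lowest were 1.37 CPM in 11960b, 1.59 CPM in 11949a, 1.81 CPM in 11949c and 2.38 CPM in 11949b. Fish 11949h and 11949f were thus among the highest, and 11949b and 11949c among the lowest, in both tissues. Fish 11949a was low in skin, with 5 counts, and at the tumor median with 4.56 CPM.

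**Figure D1:**
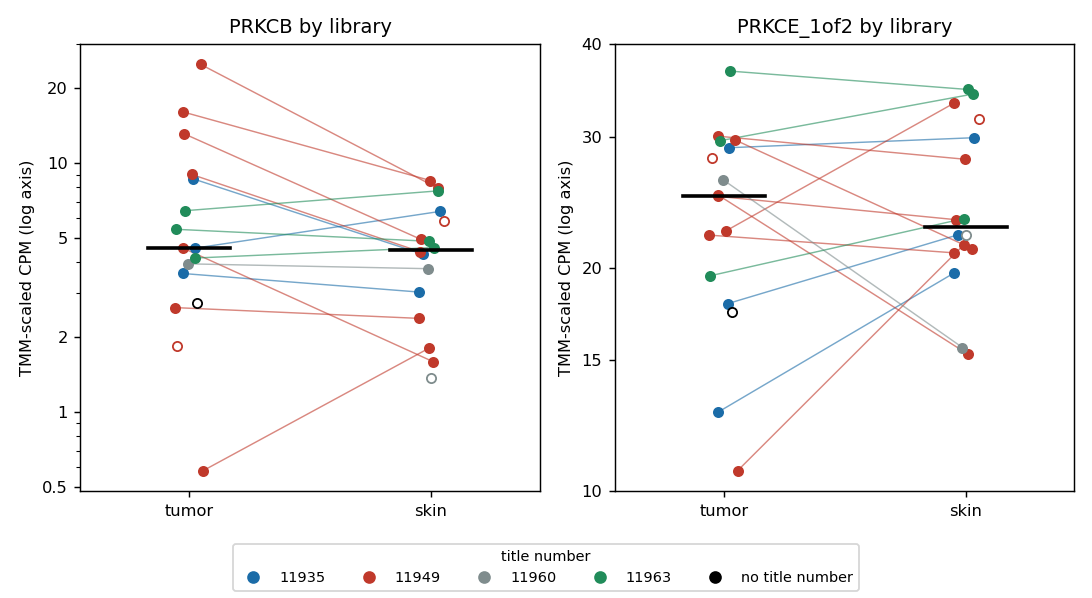
Level of PRKCB (left panel) and PRKCE_1of2 (right panel) in TMM-scaled CPM on a log axis, tumor on the left and skin on the right of each panel. Each point is a library, lines join the tissues of a fish, colours mark the title number, open points are libraries without a partner and black bars are medians. PRKCB spreads from 0.581 to 25.0 CPM in tumor and from 1.37 to 8.52 CPM in skin, and PRKCE_1of2 from 10.7 to 36.8 CPM in tumor and from 15.3 to 34.7 CPM in skin.

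PRKCE_1of2 varied far less. In tumors its level ran from 10.7 CPM in 11949c, through a median of 25.0 CPM, to 36.8 CPM in 11963d. In skins it ran from 15.3 CPM in 11949a, through a median of 22.7 CPM, to 34.7 CPM in 11963d. The same fish was highest in both tissues, and the ranges overlapped over most of their length. The highest value was 3.45 times the lowest in tumor and 2.27 times the lowest in skin. Counts were 55 to 230 per tumor library and 48 to 182 per skin library, so counting error was smaller than for PRKCB. Levels of the genes were not compared with each other, since transcript lengths are not used here.

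The low end of the tumor order was held by the tumors of 11949c (10.7 CPM, counting interval 8.02 to 13.9 CPM) and 11935d (12.8 CPM, interval 10.2 to 15.8 CPM), which overlapped each other. The next tumors, the untitled column at 17.4 CPM and 11935e at 17.9 CPM, had intervals that also overlapped that of 11935d. The tumor of 11949c stood apart within its title number, where the next tumor had 22.1 CPM. That library was also the lowest for PRKCB, and it had the fewest rows with a count, 16894, against up to 17879 in other tumors. The skin of 11949a, lowest for PRKCE_1of2, likewise had the fewest such rows among skins, 16951 against up to 18380. That skin also had the lowest total count among skins, 4239036. The total of the tumor of 11949c, 4938279, was the lowest among tumors after that of 11949f. Over the 16 libraries of a tissue, the log2 level of PRKCB correlated with the number of detected rows at r = 0.435 in tumor and r = 0.613 in skin, as a description. The corresponding values for PRKCE_1of2 were 0.378 in tumor and 0.199 in skin. With the total count, r lay between -0.165 and 0.150 for both genes in both tissues. The part of these library measures in the levels was not tested.

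The first comparison asked whether the kinases differ between melanoma and skin. PRKCB averaged 7.02 ± 6.31 CPM in tumors and 4.59 ± 2.26 CPM in skins (SD, n = 16 each), and PRKCE_1of2 averaged 23.9 ± 6.95 CPM in tumors and 24.8 ± 6.34 CPM in skins (SD, n = 16 each). Neither difference passed the threshold, an adjusted p of 0.05, in edgeR's quasi-likelihood test, which here did not pair the tissues of a fish. It called 23.5% of 14542 tested rows, 11.2% higher and 12.3% lower in tumor. The log2 fold change of PRKCB was 0.60 (SE 0.35, 95% interval -0.11 to 1.31, edgeR adjusted p = 0.234). That of PRKCE_1of2 was -0.05 (SE 0.16, interval -0.37 to 0.26, adjusted p = 0.847). A 2-fold rise lies outside the interval for PRKCE_1of2 and inside it for PRKCB, and a 2-fold fall lies outside both. The PRKCB value leaned on 1 library: without the tumor of 11949h it was 0.33 (adjusted p = 0.522).

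Comparing tissues within each fish narrowed the PRKCB estimate. With the fish as a block in the 14 pairs, its log2 fold change was 0.46 (SE 0.21, 95% interval 0.02 to 0.91, unadjusted p = 0.0424, edgeR adjusted p = 0.0823), and 46.2% of rows passed. The same paired libraries without a block gave 0.67 for PRKCB (SE 0.36, edgeR adjusted p = 0.224). Another test, limma voom, allowed for likeness within a fish over all libraries and gave 0.34 (limma adjusted p = 0.205). PRKCE_1of2 stood at -0.07 (SE 0.13, edgeR adjusted p = 0.689) in the edgeR fit with the block. Fish 11949c was then left out of that fit, a choice made after its values were seen. PRKCB passed with 0.54 (SE 0.20, edgeR adjusted p = 0.0351), as did 6225 of 14455 rows. PRKCE_1of2 changed sign to 0.0023 (adjusted p = 0.989). Over the 12 alternatives other than the omission of single libraries, the adjusted p of PRKCB ran from 0.0351 to 0.911, the highest being without title number 11949, where the log2 fold change was 0.13. That omission was also chosen after the values were seen.

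The pairs show how PRKCB differed between tumor and skin in each fish. Its CPM was higher in tumor in 10 of 14 fish and lower in 4, with a median log2 difference of 0.19. In 6 fish the tumor exceeded the skin beyond the exact 95% counting interval of the ratio, in 0 it fell below, and in 8 the interval included equality. The largest ratio was 3.15 in 11949h (interval 2.31 to 4.35), from 25.0 CPM in its tumor and 7.93 CPM in its skin. Fish 11949a followed at 2.86 (interval 1.11 to 9.41), on 32 tumor counts and 5 skin counts. Fish 11949g had a ratio of 2.66, 11949l of 2.04, 11935e of 2.01 and 11949f of 1.89. So 5 of these 6 fish belonged to title number 11949, which held 7 of the 14 paired fish. The interaction of tissue with title number, given below, did not pass. In the same title number, 11949c gave the lowest ratio, 0.322 (interval 0.0550 to 1.34), on 3 tumor counts and 8 skin counts.

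PRKCE_1of2 split evenly, higher in the tumor of 7 fish and lower in 7, with a median log2 difference of 0.02. Counting intervals excluded equality in 3 fish with a higher tumor level and 3 with a lower one. The higher ones were 11960a with a ratio of 1.68 (26.3 CPM in tumor, 15.6 CPM in skin), 11949a with 1.64 and 11949h with 1.401. The lower ones were 11949c with 0.497 (10.7 CPM in tumor, 21.5 CPM in skin), 11935d with 0.650 and 11949l with 0.673. In 11949l the genes lay on opposite sides of equality beyond counting error, since PRKCB there was 2.04 times its skin level. In 11949c both ratios lay below 1.

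Since the title number may mark a batch, the tissues were also compared within it. In 11949, PRKCB averaged 9.10 ± 8.48 CPM in tumors and 4.68 ± 2.67 CPM in skins (SD, n = 8 each). Its log2 fold change was 0.92 (SE 0.59, edgeR adjusted p = 0.369), with 12.7% of rows called. With the fish as a block, 7 pairs gave 0.90 (SE 0.32, 95% interval 0.20 to 1.60, edgeR adjusted p = 0.0583), and 27.7% of rows passed. Within 11935, PRKCB had 3.60, 8.64 and 4.56 CPM in the tumors of fish d, e and f, against 3.04, 4.30 and 6.397 CPM in their skins. Within 11963, it had 5.42, 4.16 and 6.44 CPM in the tumors of fish a, d and g, against 4.85, 4.58 and 7.74 CPM in their skins. In these smaller sets the tissues overlapped, with log2 fold changes of 0.28 in 11935 (SE 0.49, edgeR adjusted p = 0.910) and -0.07 in 11963 (SE 0.43, adjusted p = 0.9997). For 11960, with 1 tumor and 2 skins, no such fit was made: 11960a had 3.94 CPM in tumor and 3.77 CPM in skin.

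PRKCE_1of2 did not pass in any title number. In 11935 it had 12.8, 17.9 and 29.0 CPM in the tumors of fish d, e and f, against 19.6, 22.1 and 29.9 CPM in their skins. All 3 tumors were lower than their skins, though the groups overlapped, and the log2 fold change was -0.27 (SE 0.40, edgeR adjusted p = 0.889). In 11963 it had 19.5, 36.8 and 29.6 CPM in the tumors of fish a, d and g, against 23.3, 34.7 and 34.2 CPM in their skins and a log2 fold change of -0.07 (SE 0.38; adjusted p from edgeR, 0.9997). In 11949 it averaged 24.1 ± 6.24 CPM in tumors and 24.4 ± 6.11 CPM in skins (SD, n = 8 each), a log2 fold change of -0.04 (SE 0.23, edgeR adjusted p = 0.948). The share of rows called was 0% in 11935, where 1746 rows had an unadjusted p under 0.05 and DESeq2 called 608, and 0.399% in 11963. With the fish as a block those shares were 10.1% and 7.87%, and the adjusted p values of both genes in these sets stayed between 0.298 and 0.937.

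Whether the tumor-skin difference itself varied with the title number was tested as an interaction, and neither gene passed. For PRKCB the joint edgeR test gave an unadjusted p of 0.528 (adjusted p = 1), and 0.139 with the fish as a block (adjusted p = 0.848). In the blocked fit, its log2 fold change in 11963 was lower than that in 11949 by 1.01 (log2 difference -1.01, SE 0.50, unadjusted edgeR p = 0.0623, adjusted p = 0.875). For PRKCE_1of2 the joint unadjusted p was 0.843, and 0.644 with the block (edgeR). Without the block, the test did not pair the tissues of a fish. It called 0% of 16357 rows, with 115 at an unadjusted p under 0.05 and 0 called by DESeq2. Those 115 are fewer rows than chance alone would put under 0.05, so not passing without the block says little. With the block the test again called 0%, with 868 rows at an unadjusted p under 0.05.

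Neither gene passed a test between title numbers within a tissue. In tumor, PRKCB in 11935 stood at a log2 difference of -0.70 from 11949 (SE 0.83, edgeR adjusted p = 0.905), and in 11963 at -0.76 (SE 0.83, adjusted p = 0.893). PRKCE_1of2 in tumor stood at -0.29 in 11935 (SE 0.35) and at 0.25 in 11963 (SE 0.34) relative to 11949, with edgeR adjusted p values of 0.908 and 0.910. In skin, PRKCB differed from 11949 by -0.06 in 11935 and by 0.27 in 11963, and PRKCE_1of2 by -0.04 and 0.33, with SE between 0.29 and 0.52. In tumor, 0% of 15724 rows were called for 11935 and 0.00636% for 11963, and in skin 0% for either. For 11935 in tumor, edgeR's count of 0 stood beside 1134 rows at an unadjusted p under 0.05 and 72 calls by DESeq2. In skin, the counts of 0 stood beside 551 such rows and 5 DESeq2 calls for 11935, and 1154 rows and 67 calls for 11963.

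Backcross fish inherit different mixtures of parental alleles, so a joint test asked whether levels differ between fish after allowing for tissue. PRKCB passed (edgeR adjusted p = 0.00150), as did 79.4% of 14591 rows, so its call is shared with most of the table. PRKCE_1of2 did not pass in edgeR (adjusted p = 0.0816), though it did by DESeq2 (adjusted p = 0.0262). DESeq2 called 12523 of the 14591 rows, so that call too is shared with most of the table. Within the 7 paired fish of 11949, PRKCB passed again (edgeR adjusted p = 0.00544) and PRKCE_1of2 did not (adjusted p = 0.391), with 56% of rows called. Without title number 11949, chosen after the values were seen, the calls were exchanged. PRKCB then had an edgeR adjusted p of 0.170 and PRKCE_1of2 one of 0.0452, with 68.1% of rows called. Leaving out 11949a (adjusted p = 0.0396) or 11960a (0.049995) also brought PRKCE_1of2 past the threshold in edgeR, with 11760 and 11239 rows called.

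On the log2 CPM scale, the means of the 14 fish over both tissues spanned 3.35 for PRKCB and 1.22 for PRKCE_1of2, against a median span of 2.12 over all tested rows. A span at least as wide was seen in 13.3% of rows for PRKCB and in 88.4% for PRKCE_1of2. The lowest fish mean of PRKCB was that of 11949c, which rests on 3 tumor counts and 8 skin counts. The rows compared were of all count levels, and the part of counting error in these spans was not tested. Of the variance of PRKCB over the 28 paired libraries, 78.6% lay between fish, 4.51% between tissues and 16.8% in the remainder. For PRKCE_1of2 the shares were 68.2%, 0.334% and 31.5%. These shares were not corrected for the number of fish. With 14 fish over 28 libraries, fish take a large share even without differences between them. The medians over all tested rows were 75.5%, 6.03% and 12.9%, and Xmrk, by contrast, had 7.94% between fish and 81.7% between tissues.

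Tumor and skin levels of PRKCB in the same fish were correlated when all 14 fish were used. Pearson's r of log2 CPM was 0.739 (permutation p = 0.00183, adjusted p = 0.0146 over the 8 relations tested) and Spearman's rho was 0.732 (permutation p = 0.00400, adjusted p = 0.0320). Without the 2 fish farthest from the median skin level, r was 0.712 (adjusted permutation p = 0.0814) and rho was 0.762 (adjusted permutation p = 0.0448). The rank correlation thus still passed and Pearson's r did not. Within the 7 fish of 11949, r was 0.866 (exact permutation p = 0.0113, adjusted p = 0.0886). For PRKCE_1of2 the relation did not pass, with r = 0.380 (permutation p = 0.181, adjusted p = 0.206) and rho = 0.415 (permutation p = 0.140, adjusted p = 0.187). Without the 2 farthest fish its r was 0.154, and within 11949 it was 0.0843.

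**Figure D2:**
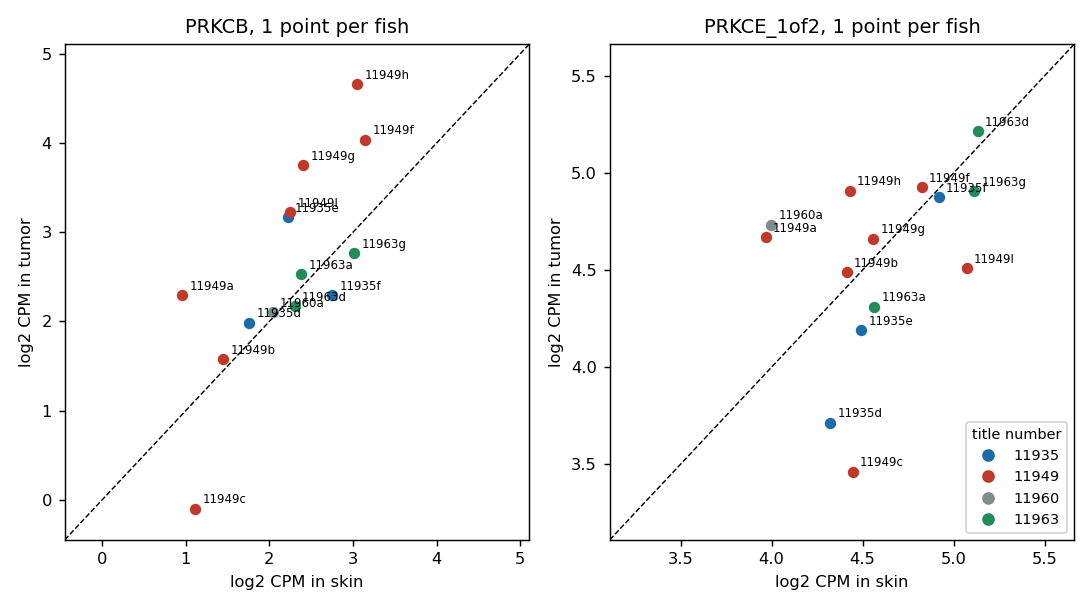
Log2 CPM in tumor (vertical axis) and in skin (horizontal axis) of the 14 fish with both tissues, for PRKCB and PRKCE_1of2, coloured by title number. The dashed line marks equal levels. PRKCB follows a rising trend (r = 0.739), with 10 of 14 fish above the line, and PRKCE_1of2 shows a looser cloud (r = 0.380).

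The SD between fish was larger in tumor than in skin for both genes, and neither difference passed an exact test. Over the 14 paired fish, the SD of log2 CPM of PRKCB was 1.17 in tumor and 0.69 in skin. All swaps of the tissue names within fish gave an exact two-sided permutation p of 0.119 for this difference (0.237 adjusted over the 2 tests). The ratio of these SDs was 1.69, and 5.12% of tested rows had a ratio at least as large, the median over all rows being 0.979. The PRKCB difference was seen in 11949, where the SDs were 1.64 in tumor and 0.89 in skin (7 fish, exact permutation p = 0.109). In the other 7 fish both were 0.42 (exact permutation p = 1). Without fish 11949a the difference of SDs was 0.60 and passed, with an exact permutation p of 0.0381 after adjustment, and without 11949c it was 0.27 and did not. For PRKCE_1of2 the SDs were 0.49 in tumor and 0.38 in skin (exact permutation p = 0.476), and without 11949c the difference of -0.0018 had the opposite sign.

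The kinases were next set against each other and against Xmrk, the receptor kinase oncogene of this cross. In tumor, PRKCB and PRKCE_1of2 correlated at r = 0.510 over 16 libraries (permutation p = 0.0459, adjusted p = 0.0859; rho = 0.438, adjusted p = 0.148). Without the 2 tumors farthest from the median of PRKCE_1of2, those of 11949c and 11935d, r was 0.165, so this relation rests on them. In skin r was 0.575 (permutation p = 0.0211, adjusted p = 0.0563; rho = 0.565, adjusted p = 0.0503), and 0.541 without the 2 farthest. Neither passed the adjusted threshold with TMM, and the skin rho passed with RLE size factors (rho = 0.585, adjusted permutation p = 0.0434). Within 11949, r was 0.730 in tumor and 0.620 in skin (8 libraries each, exact permutation adjusted p = 0.0886 and 0.168).

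The levels of PRKCE_1of2 and Xmrk in tumor gave the largest r with Xmrk among the 4 tested. Over 16 tumors it was 0.689 (permutation p = 0.00445, adjusted p = 0.0178) and rho was 0.588 (permutation p = 0.0184, adjusted p = 0.0503). The rank correlation did not pass with TMM and did with RLE size factors (rho = 0.603, adjusted permutation p = 0.0434). Without the 2 tumors farthest from the median of Xmrk, those of 11935d and 11935e, r was 0.552 (adjusted permutation p = 0.0930). The call on r thus rests on these 2 tumors, both of title number 11935. Within 11949, r was 0.463 over 8 tumors (exact permutation p = 0.269, adjusted p = 0.358). In skin the sign was the opposite, r = -0.431 (permutation p = 0.0964, adjusted p = 0.129), and it did not pass. Without the 2 farthest skins it was -0.201, and within 11949 it was -0.745 over 8 skins (exact permutation p = 0.0332, adjusted p = 0.0886). The difference between the tissues was not tested.

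For PRKCB and Xmrk, r was 0.148 in tumor (permutation p = 0.579, adjusted p = 0.579). In skin it was -0.492 (permutation p = 0.0537, adjusted p = 0.0859), with rho = -0.562 (permutation p = 0.0252, adjusted p = 0.0503). Neither passed with TMM, and the skin rho passed with RLE size factors (rho = -0.574, adjusted permutation p = 0.0434). Within 11949, r was 0.273 in tumor and -0.640 in skin (8 libraries each, exact permutation adjusted p = 0.585 and 0.168).

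Rows with the pattern most like each kinase were found by Pearson's r of log2 CPM over all 32 libraries. The closest to PRKCB was ENSXMAT00000000211, with r = 0.976 over all libraries, 0.987 in tumor and 0.947 in skin. Its log2 fold change between tumor and skin was 0.68 (SE 0.37, edgeR adjusted p = 0.195), near that of PRKCB. ENSXMAT00000015385 (r = 0.847) and ENSXMAT00000018980 (r = 0.808) came next. The closest to PRKCE_1of2 was ENSXMAT00000016040, with r = 0.969 over all libraries, 0.979 in tumor and 0.956 in skin and a log2 fold change of -0.07 (SE 0.15, edgeR adjusted p = 0.787). ENSXMAT00000010624 (r = 0.831) and ENSXMAT00000003993 (r = 0.799) followed. The files do not pair these identifiers with gene names. Among rows with a symbol, OXR1, an oxidation resistance gene, was closest to both, with r = 0.692 for PRKCB and 0.614 for PRKCE_1of2.

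Such near-identical partners were common among the rows with a symbol. The 20 of them that were tested had a closest row at a median r of 0.968, against 0.872 over all tested rows, and 3.47% of all rows had a closest row at least as near as that of PRKCB. Counts of PRKCB (1048 in all) never exceeded those of its closest row (1434 in all) in any of the 32 libraries. Counts of PRKCE_1of2 (4382 in all) likewise stayed at or below those of its closest row (5673 in all) in 32 of 32. The same held for PRKCB against ENSXMAT00000015385 and OXR1, and for PRKCE_1of2 against ENSXMAT00000010624. For PRKCB against ENSXMAT00000018980, a row with 326 counts in all, it held in 0 of 32. ENSXMAT00000015385, OXR1 and ENSXMAT00000010624 hold many more counts in all (3866, 7452 and 15744) than the kinase they were compared with. They therefore cannot show whether never exceeding a row sets the closest rows apart, which was not tested. The sources used here do not say whether each kinase and its closest row hold the same reads or models of the same gene. The closest rows are therefore no separate evidence for either level.

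The count of PRKCB relative to its closest row was a measure chosen after its values were seen. With the tissues summed, it ran from 0.640 to 1 over the fish. It lay at 0.640 in 11935f and 11949b, 0.641 in 11949l, 0.643 in 11960a, 0.646 in 11949h, 0.656 in 11935e and 0.695 in 11949g. After the widest gap in the order, 0.169, it lay at 0.864 in 11963g, 0.881 in 11949f and in 11949a, 0.893 in 11963d, 0.896 in 11935d, 0.930 in 11963a and 1 in 11949c, the last on 11 counts of each row. Fish of 11935 and 11949 stood on both sides of the gap, and the 3 fish of 11963 on the upper side. In the deepest case, 11949h, the ratio was 0.656 in tumor and 0.618 in skin, over 223 counts of PRKCB and 345 of its closest row. In 11949f it was 0.870 in tumor and 0.891 in skin, over 96 and 109 counts. The tissues of 2 fish differed by more than the gap: the ratio was 0.914 in tumor and 0.714 in skin of 11949a, and 0.828 in tumor and 1 in skin of 11935d. Single libraries also fell inside the gap. Among tumors these were 11935e at 0.704, 11949d at 0.714, the untitled column at 0.72, 11935d at 0.828, 11963g at 0.833 and 11963d at 0.839. Among skins they were 11949a at 0.714, 11960b at 0.75, 11949g at 0.769 and 11949q at 0.846. All libraries without a partner, which had no part in defining the gap, thus lay inside it. PRKCE_1of2 had no such gap, its ratio running from 0.699 in 11935f to 0.844 in 11949b, with steps of at most 0.0249 between neighbours. The gap itself was not tested. A permutation test, also chosen after seeing the values, asked whether ratios lay closer within a fish than between fish. For PRKCB the one-sided permutation p was 0.00174 (adjusted p = 0.00348), and 0.0144 in exact permutations within title numbers (adjusted p = 0.0288). For PRKCE_1of2 these permutation p values were 0.0388 (adjusted p = 0.0388) and 0.243 (adjusted p = 0.243). The closest rows had been picked by their likeness over these same libraries, and the adjustment covers both genes only. Other rows were not tested against their closest rows, so the test does not show whether this likeness is particular to PRKCB.

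**Figure D3:**
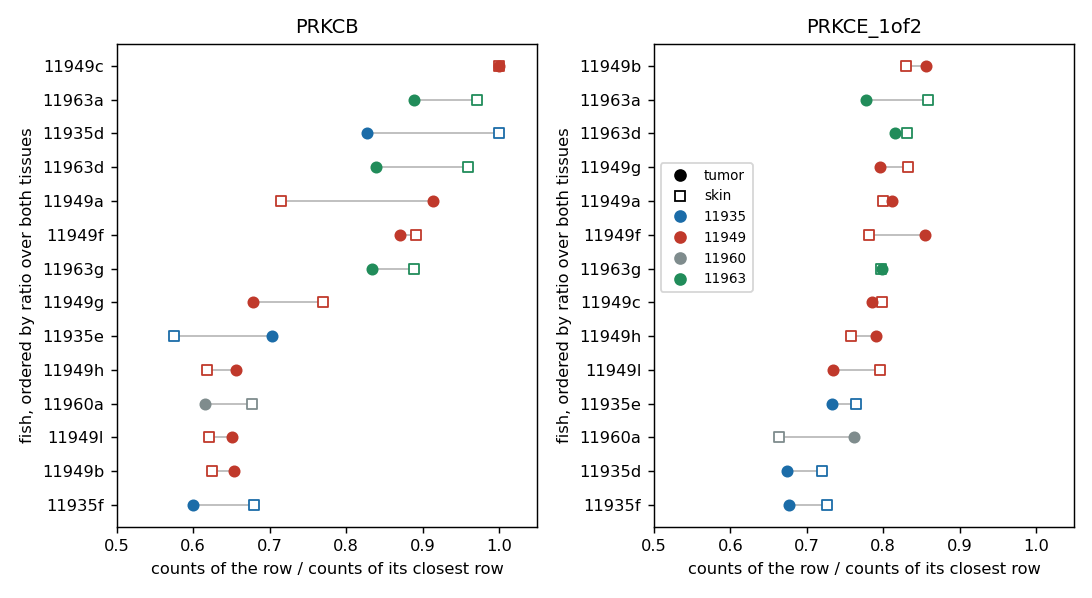
Count of PRKCB and of PRKCE_1of2 divided by the count of the row most like it, for each fish with both tissues, in the order of the ratio over both. Filled circles are tumors and open squares are skins. For PRKCB, 7 fish lie at 0.640 to 0.695 and 7 at 0.864 to 1 when the tissues are summed, and PRKCE_1of2 runs from 0.699 to 0.844 without a gap of that width.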

How the data were processed

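The authors deposited 1 table of raw read counts per transcript row. The aligner was GSNAP, per the submitters' processing notes. Not given in the sources used here are its version, the genome build, the counting program and the treatment of reads from either parental allele. Tissue and fish came from the sample titles. One tumor column matched no title and was used without a fish, and 1 tumor title, whose number no other title carries, matched no column. Skin and tumor of a fish deviated together from the tissue means across rows (r 0.421 to 0.774, against -0.341 to 0.338 between fish). The fish in the titles was therefore used as the block in the fits that had one. The main fit of tumor against skin had none.

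The counts were tested over the whole table with edgeR 4.0.16 in R 4.3.3 (TMM, filterByExpr, quasi-likelihood F-test, no block, Benjamini-Hochberg threshold 0.05). A run on simulated counts held no likeness between tissues of a fish in the tumor-skin comparisons. In the other comparisons it held less variation between libraries than fitted. It therefore does not measure the power of these tests. Alternatives used DESeq2 1.42.0, limma 3.58.1 (voom), other filters and scalings, and left-out libraries. Log2 CPM used a prior count of 2. Correlations, spreads and count ratios used permutation tests (100000 resamples, or exact) in SciPy 1.17.1 under Python 3.11.15, and figures matplotlib 3.10.9. Replicates are different fish. Intervals of counts cover counting error only.

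The genes and lists were chosen with earlier results of these data known. Named rows were both kinases, Xmrk, the 3 rows most like each kinase and the most alike row with a symbol.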

Additional observations from a re-analysis of the deposited data

Results flagged for a closer look

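Sets of 8 libraries of a tissue, or of 7 paired fish, of title number 11949 were searched for a value far from the rest. Of 12 searches of levels, count ratios, totals and tumor-skin differences, 3 found one. Chance gives about 0.6 in separate groups, but these searches share libraries, so that number is only a rough guide. The tumor of 11949c had 10.7 CPM of PRKCE_1of2, and the next of the 8 tumors of 11949 had 22.1 CPM. In the tumor of 11949f the total count was 2578877, against 4938279 in the next tumor of 11949. It was the second highest tumor for PRKCB. The skin of 11949q had a count of PRKCE_1of2 of 0.657 relative to its closest row, against 0.758 in the next skin of 11949. The tumor-skin differences of both genes were compared between title numbers in 6 comparisons of direction and 4 interaction tests, and 0 met the criteria.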

How the results depend on the processing

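Outside the omission of single libraries, 136 values kept their direction and side of the threshold. With the fish as a block and without 11949c, the log2 fold change of PRKCB was 0.54 and passed, and that of PRKCE_1of2 was 0.0023, a changed sign. The fish test of PRKCE_1of2 passed with DESeq2 (adjusted p = 0.0262) and without 11949 (0.0452), where PRKCB (0.170) did not. Without 11949, the tumor minus skin difference of the PRKCB SDs was -0.0023. The same-fish r of PRKCB (0.712 without the 2 farthest, 0.866 within 11949) and the tumor r of PRKCE_1of2 with Xmrk (0.552 and 0.463) no longer passed. With RLE size factors, 3 rank correlations at an adjusted p of 0.0503 passed at 0.0434. The cause of these changes was not tested. The block alone changed no call of these genes.

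Leaving out 1 library or fish at a time gave these ranges, with reversed signs where a range crosses 0. For tumor against skin, log2 fold changes were 0.33 to 0.69 for PRKCB and -0.11 to -0.00058 for PRKCE_1of2. Within 11935 they were -0.17 to 0.59 for PRKCB and -0.65 to -0.03 for PRKCE_1of2, and within 11963 -0.24 to 0.18 for PRKCB and -0.30 to 0.16 for PRKCE_1of2. For 11935 against 11949 in skin they were -0.37 to 0.15 for PRKCB and -0.23 to 0.067 for PRKCE_1of2, and for 11963 they were 0.01 to 0.41 and 0.24 to 0.48. In tumor, PRKCB ranged from -1.17 to -0.47 for 11935 and from -0.85 to -0.55 for 11963, and PRKCE_1of2 from -0.68 to -0.06 and from 0.07 to 0.46. Of these values none passed. In the comparisons between title numbers, only libraries of 11935 and 11963 were left out, not those of 11949. Tumor against skin within 11949 was not refitted in this way either. The fish test gave adjusted p of 0.00119 to 0.00480 for PRKCB and 0.0396 to 0.198 for PRKCE_1of2. Differences of SDs were 0.27 to 0.60 for PRKCB and -0.0018 to 0.16 for PRKCE_1of2.

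Rows called in tumor against skin numbered 3419, against 6740 with the block, 7272 with voom, 6225 with the block without 11949c and 1113 without 11949. Within 11935, 0 became 608 with DESeq2 and 1505 with the block. Within 11949, 1822 became 3982 with the block. Within 11963, 58 became 637 with DESeq2, 1143 with the block and 0 to 43 without 1 library. Between title numbers, DESeq2 called 72 and 46 rows in tumor and 5 and 67 in skin, against 0, 1, 0 and 0 by edgeR.

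PRKCB rests on 3 to 168 counts in tumor and 5 to 55 in skin libraries, which limits the ratios of fish with low counts.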
